A study of Mus musculus with 2 samples.

Results

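The genes described here are 10 that store, take up, release or sense iron in mouse cells: the ferritin chains Ftl1 and Fth1, the ferritin turnover receptor Ncoa4, the transferrin receptor Tfrc, its ligand transferrin (Trf), the endosomal reductase Steap3, the ferrous iron transporter Slc11a2, the exporter ferroportin (Slc40a1), and the iron regulatory proteins Aco1 and Ireb2. They were chosen by name, with measured values of these same libraries in view, so their levels are given as a description and carry no test. All 10 had a row in both gene tables, out of 43346 annotated genes, of which 21474 are protein-coding. The samples were embryonic forebrain of strain B6NCrl mice at 10.5 days, untreated, both sexes mixed. The only group had 2 libraries of total RNA, each made from 10 ng: replicate 1 pooled 69 embryos and replicate 2 pooled 51 others. The tables assigned 41537304 counts to annotated genes in replicate 1 and 38012457 in replicate 2. Levels are in TPM, a share of all transcripts corrected for length, and are the mean ± SD of both libraries (n = 2) unless each library is named.

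Cells take up iron when transferrin binds its receptor and is carried into endosomes, where the iron is released, reduced and passed to the cytosol. Iron that is not used is kept inside ferritin shells built of light and heavy chains, and leaves the cell through ferroportin. When iron is scarce, the iron regulatory proteins bind hairpins in mRNA called iron-responsive elements: near the 5′ end of a message they block its translation, and in the 3′ UTR of the transferrin receptor message they protect it from decay. The libraries measured mRNA alone, so nothing here speaks of protein amounts or of iron.

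The hairpin is the sequence feature that links the storage, uptake and export genes, so it was searched for in every GENCODE M21 transcript of the 10 genes, on the sense strand. The pattern was a C, then NNNNN, the loop CAGTGN and NNNNN, with all 5 bases after the loop able to pair with the 5 before it, G with T allowed. It overlaps no other motif searched. In the windows of 29 bases printed here, 5′ to 3′ on the transcript strand (GENCODE M21, GRCm38, the assembly also called mm10), the 6 bases of the loop are in capitals.
Ftl1-201, 5′ UTR, chr7:45459779-45459807, minus strand: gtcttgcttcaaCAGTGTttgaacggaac
Fth1-201, 5′ UTR, chr19:9982732-9982760, plus strand: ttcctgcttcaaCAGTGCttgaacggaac
Slc40a1-201, 5′ UTR, chr1:45925465-45925493, minus strand: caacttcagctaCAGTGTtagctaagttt
Tfrc-201 site 1, 3′ UTR, chr16:32631219-32631247, plus strand: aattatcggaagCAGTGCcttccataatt
Tfrc-201 site 2, 3′ UTR, chr16:32631598-32631626, plus strand: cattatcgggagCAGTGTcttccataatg
Tfrc-201 site 3, 3′ UTR, chr16:32631663-32631691, plus strand: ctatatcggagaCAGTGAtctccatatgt
Tfrc-201 site 4, 3′ UTR, chr16:32631710-32631738, plus strand: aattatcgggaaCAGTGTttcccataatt
Slc11a2-205, 3′ UTR, chr15:100395153-100395181, minus strand, with 4 pairs: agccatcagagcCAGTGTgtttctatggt

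Of the 10 genes 4 held the full pattern: the ferritin chains and Slc40a1 with a single match each, and Tfrc with 4. By gene, 1.34% of 21901 protein-coding genes and 2.33% of the 86 other iron genes listed for this work held it. Among the latter was Alas2, the first enzyme of heme synthesis in red cells, with its match in the 5′ UTR. The windows of Ftl1 and Fth1 differed at 3 of 29 bases and at 1 of the 17 bases of stem and loop, whereas those of Ftl1 and Slc40a1 differed at 16 of 29. Among the Tfrc sites, the first differed from the second at 4 bases, from the third at 10 and from the fourth at 5.

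Position along the message separated the 2 kinds. In Ftl1-201, Fth1-201 and Slc40a1-201 the loop began 90, 99 and 102 bases from the transcript's 5′ end, ahead of coding sequences that began at bases 254, 225 and 320. In Tfrc-201 the loops began 898, 1277, 1342 and 1389 bases after the last coding base and lay within 492 bases of each other. Of 3270 protein-coding transcripts within 10% of the length of Tfrc-201, 1.59% had a match and 1, Tfrc-201 itself, had 4. Among transcripts of like length, a match was found in 0.463% for Ftl1-201, 0.440% for Fth1-201 and 1.65% for Slc40a1-201. In Slc11a2 the full pattern was absent, and the loop of Slc11a2-205, 47 bases after its coding sequence, had 4 of 5 pairs. This looser pattern was common: 13.6% of protein-coding transcripts of like length held it. No transcript of Aco1, Ireb2, Ncoa4, Steap3 or Trf held either pattern, which says only that these letters are not in those sequences.

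**Figure D1:**
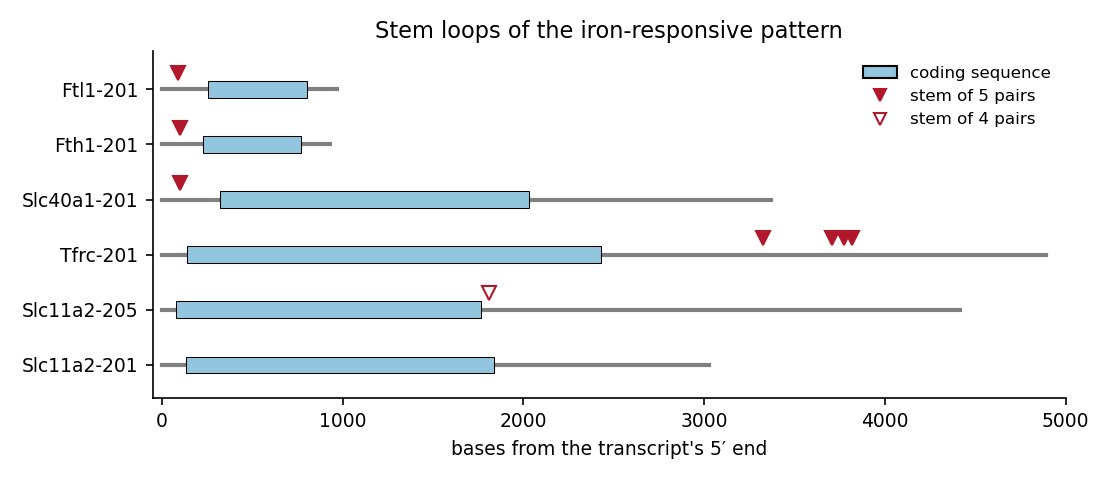
Leading M21 transcripts of the 4 genes with the full pattern, and 2 transcripts of Slc11a2, drawn to scale in bases from the 5′ end, with coding sequence as boxes and loops as triangles (filled, 5 pairs; open, 4 pairs). The loops of Ftl1-201, Fth1-201 and Slc40a1-201 lie within 102 bases of the 5′ end, the 4 of Tfrc-201 lie after its coding sequence, and Slc11a2-201 has none.

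The ferritin chains stood far above every other gene of the set. Ftl1, the light chain that helps form the mineral core (ENSMUSG00000050708, chr7:45457944-45459884, minus strand), had 4476 TPM in replicate 1 and 4371 in replicate 2, a mean of 4424 ± 74.1. Fth1, the heavy chain that oxidises ferrous iron (ENSMUSG00000024661, chr19:9980598-9985098, plus strand), had 1208 and 1115 TPM, a mean of 1161 ± 65.6. Both were slightly higher in replicate 1, and the ranges of the 2 genes did not overlap. By mean TPM, Ftl1 ranked 5 among the 21474 protein-coding genes and Fth1 ranked 72.

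The closest protein-coding genes in level give a scale for these values. Ftl1 lay between Ppia, the abundant cyclophilin A, at 5152 ± 70.6 TPM and mt-Atp6, a mitochondrially encoded ATP synthase subunit, at 4415 ± 147, and its distance from mt-Atp6 was smaller than the spread of either. Fth1 lay between Eif4g2, a translation factor, at 1162 ± 1.61 and the ribosomal protein gene Rpl13 at 1159 ± 11.2, neither of them beyond the spread of Fth1.

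The light chain message exceeded the heavy chain message 3.71-fold in replicate 1 and 3.92-fold in replicate 2. The difference was 1.93 ± 0.06 on the log2(TPM + 0.1) scale, larger than the spread between libraries. Ftl1 was 78.8% of the summed ferritin TPM in replicate 1 and 79.7% in replicate 2. Both chains together were 0.568% and 0.549% of all TPM, and 95.7% and 95.8% of the TPM of the 10 genes. The 8 other genes summed to 255 and 243 TPM.

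Reads from ferritin copies bear on these levels. Ftl1-ps1, a copy 99.6% identical to Ftl1-201 over 910 bases, held 1566 and 1135 expected counts beside 107152 and 94224 for Ftl1, and a split of reads between sequences so alike is uncertain. Gm22133, a microRNA row annotated inside Ftl1 on the same strand, held 1282 and 1168 counts; its effective length of 10 bases turned these into 4633 and 4682 TPM, as high a value as that of Ftl1. All 18 rows of light chain sequence together held 2.74% and 2.49% of the Ftl1 count. Of these, the 3 named pseudogene rows (Ftl1-ps1, Ftl2-ps and Ftl1-ps2) held 1.48% and 1.23%. For the heavy chain the share in 5 like rows was 0.160% and 0.237%, led by Gm6977 with 32.9 and 35.6 counts.

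Ncoa4, the receptor that delivers ferritin to autophagosomes so that its iron can be released (ENSMUSG00000056234, chr14:32159865-32179855, plus strand), had 65.9 TPM in replicate 1 and 56.3 in replicate 2. It was higher in replicate 1, and its coefficient of variation of 11.2% was among the 3 largest of the 10 genes. Fth1, the chain that Ncoa4 binds, exceeded it 18.3-fold and 19.8-fold, a difference of 4.25 ± 0.08 on the log2 scale.

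**Figure D2:**
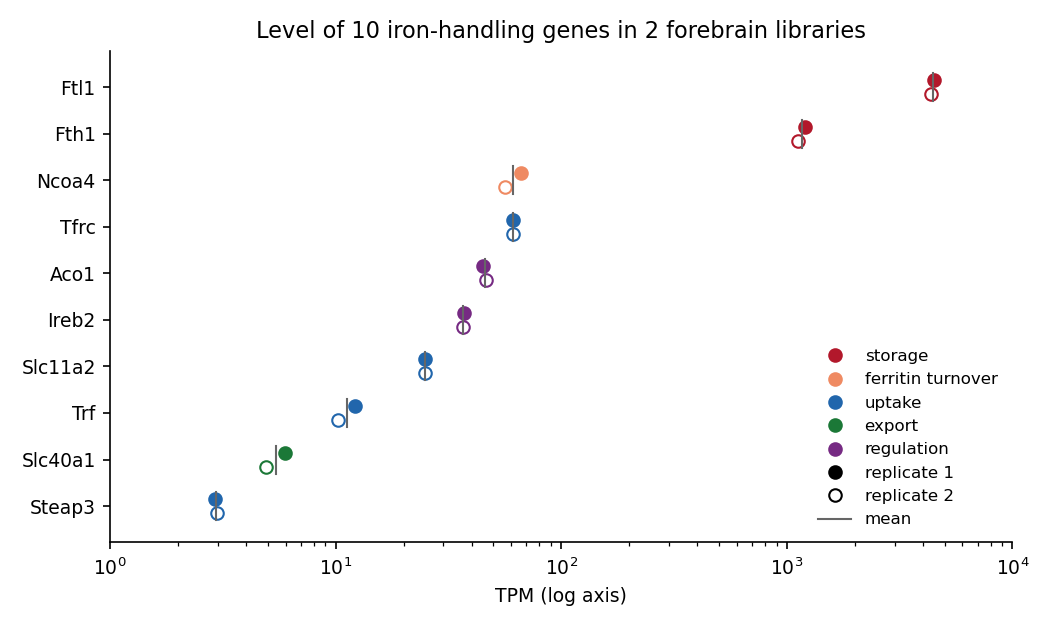
TPM of each of the 10 genes on a log axis (replicate 1 filled, replicate 2 open, mean as a bar), coloured by role. Ftl1 and Fth1 lie at 4424 and 1161 TPM, Ncoa4 and Tfrc overlap near 61 TPM, and Slc40a1 and Steap3 are lowest at 5.43 and 2.94 TPM.

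Of the 4 uptake genes in the set the transferrin receptor had the highest level. Tfrc, the receptor that brings iron-laden transferrin into the cell (ENSMUSG00000022797, chr16:32608920-32632794, plus strand), had 60.9 TPM in replicate 1 and 61.0 in replicate 2. In TPM this was the closest agreement of the 10 genes (coefficient of variation 0.128%). In counts scaled for library size, Aco1, Slc11a2, Steap3, Trf and Ireb2 agreed more closely than Tfrc, whose log2 ratio was 0.05. The effective length of Tfrc was 3873 bases in replicate 1 and 4030 in replicate 2. Pdxdc1 at 61.0 ± 0.764 and the peptidase gene Tpp2 at 61.0 ± 4.31 TPM were the nearest protein-coding genes above and below Tfrc in level. Tfr2, the second transferrin receptor and no member of the set, had 1.56 and 0.89 TPM from 122 and 63 counts. Tfrc exceeded Tfr2 36.7-fold in replicate 1 and 61.7-fold in replicate 2, or 5.57 ± 0.53 on the log2 scale, the widest spread of any pair compared. Both ferritin chains together exceeded Tfrc 93.2-fold and 89.8-fold (6.52 ± 0.04).

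Trf, the iron carrier that Tfrc binds (ENSMUSG00000032554, chr9:103204001-103230444, minus strand), had 12.2 TPM in replicate 1 and 10.2 in replicate 2. Receptor message exceeded ligand message 4.96-fold and 5.94-fold, 2.44 ± 0.18 on the log2 scale. The lower TPM in replicate 2 did not appear in the counts: 549 and 507 expected counts gave a log2 ratio of 0.02 after scaling for library size, with a 95% exact binomial interval of -0.16 to 0.20 that covers counting error only. The effective length by which Trf was scaled was 1625 bases in replicate 1 and 1995 in replicate 2, in step with the transcript shares given further on.

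Slc11a2, also called DMT1, the transporter that moves ferrous iron out of the endosome (ENSMUSG00000023030, chr15:100387898-100425072, minus strand), had 24.9 and 24.7 TPM. Its coefficient of variation between the libraries was 0.314%. Steap3, a reductase that turns endosomal ferric iron into ferrous iron and is best known from red cell precursors (ENSMUSG00000026389, chr1:120190757-120272705, minus strand), had 2.90 and 2.98 TPM from 230 and 207 counts. It was the lowest of the 10 genes, 8.19-fold below Slc11a2 (log2 difference -3.03 ± 0.03). The related reductases Steap1, Steap2 and Steap4 had 5.06 ± 0.566, 5.64 ± 0.191 and 0.130 ± 0.0707 TPM.

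The exporter lay below Tfrc and Slc11a2. Slc40a1, the only known cellular iron exporter of mammals (ENSMUSG00000025993, chr1:45908068-45926523, minus strand), had 5.96 TPM in replicate 1 and 4.89 in replicate 2, from 539 and 399 counts. Replicate 2 was lower in both TPM and scaled counts. Tfrc exceeded it 10.1-fold and 12.2-fold (3.47 ± 0.20), and Slc11a2 exceeded it 4.12-fold and 4.98-fold (2.18 ± 0.19). The second TPM estimate in the deposited tables, a posterior mean, placed Slc40a1 higher, at 7.56 and 6.50 TPM, and Tfrc over Slc40a1 then was 3.09 on the log2 scale. In a bulk sample fewer cells that express a gene and less RNA per cell cannot be told apart.

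The messages of both iron regulatory proteins lay within 1.27-fold of each other. Aco1, which encodes IRP1, a cytosolic aconitase that binds RNA once its iron-sulfur cluster is lost (ENSMUSG00000028405, chr4:40143081-40198338, plus strand), had 45.1 TPM in replicate 1 and 46.4 in replicate 2. Ireb2, which encodes IRP2, degraded when iron is plentiful (ENSMUSG00000032293, chr9:54863789-54912530, plus strand), had 36.9 and 36.5 TPM. Aco1 was above Ireb2 in both libraries, 1.22-fold and 1.27-fold, or 0.32 ± 0.04 on the log2 scale. Without division by length the sign turned to -0.32, since the Ireb2 transcript has 5808 bases and held more counts, 5824 and 5197, than Aco1 with 4612 and 4188.

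Ordered by mean TPM the genes ran Ftl1, Fth1, Ncoa4, Tfrc, Aco1, Ireb2, Slc11a2, Trf, Slc40a1 and Steap3. Of the 9 neighbouring pairs, 8 kept their order in both libraries by more than the SD of the difference. The exception was Ncoa4 and Tfrc: Ncoa4 was higher in replicate 1 and lower in replicate 2, a log2 difference of 0.00 ± 0.16. The smallest gap that held was between Aco1 and Ireb2. From the highest to the lowest gene the range was 1505-fold. Among protein-coding genes, Ncoa4 and Tfrc ranked 2792 and 2799, Aco1 3596, Ireb2 4211, Slc11a2 5479, Trf 7959, Slc40a1 9739 and Steap3 10911. Each of the 10 genes reached 1 TPM in both libraries, the level reached by 32.4% of annotated and 57.3% of protein-coding genes. Their median of 41.2 TPM stood beside a median of 20.2 TPM over the protein-coding genes that reached it. Because the genes were chosen with such values known, nothing is drawn from this.

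The transcript tables split each gene's TPM among its annotated transcripts, numbered as in GENCODE. Fth1 and Ireb2 had a single transcript in the tables, and the 8 others had 4 to 9. The leading transcript was the same in both libraries for all 10 genes. It held over 90% of the gene in Ftl1 (98.1% and 97.7%), Aco1 (98.9% and 96.4%) and Slc40a1 (98.6% and 99.1%), and most of it in Ncoa4 (77.5% and 74.8%) and Steap3 (63.5% and 73.4%). The second transcripts of the latter, Ncoa4-202 and Steap3-201, held 18.3% and 17.2% and 25.3% and 18.0%. The Slc40a1 share was 75.2% and 71.7% in the posterior mean estimate, which spreads reads over transcripts with no assigned count.

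Tfrc carried a large share of retained-intron transcripts. Its protein-coding Tfrc-201 held 60.0% of the gene's TPM in replicate 1 and 67.2% in replicate 2. Tfrc-204, annotated as a retained intron, held 25.9% and 20.8%, and the shorter Tfrc-205, also a retained intron, 7.15% and 6.20%. All retained-intron transcripts together held 33.1% and 27.2% of Tfrc TPM, higher in replicate 1, with 1555 and 1132 expected counts. By expected counts, protein-coding transcripts held 76.2% and 81.5% of Tfrc. For Trf, the next largest, retained-intron transcripts held 28.15% and 21.48% of TPM. Tfrc-204 includes the same 4 stem loops as Tfrc-201, so that 85.9% and 88.0% of Tfrc TPM lay in transcripts that hold them. Reads from such shared sequence fit both transcripts, so the split between them is uncertain. Counting protein-coding transcripts alone, Tfrc had 40.8 and 44.4 TPM, above the 3 other uptake genes of the set. By that measure Aco1 had 44.6 and 44.7 TPM, slightly above Tfrc in both libraries. The Aco1 mean of 44.7 ± 0.0919 lay within the spread of Tfrc, 42.6 ± 2.60. The 2 genes thus were not told apart by protein-coding transcripts, although Tfrc was higher by gene TPM.

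Trf differed most between libraries in its makeup. Trf-201, a coding transcript of 2571 bases, held 39.9% of Trf TPM in replicate 1 and 69.6% in replicate 2. Trf-203, a coding transcript of 2339 bases, held 20.8% and 8.93%, and Trf-209, a retained intron of 433 bases, 27.5% and 20.5%. These shares rest on few reads: Trf-209 drew 31.0 and 17.4 counts, Trf-203 157 and 50.8. A large TPM share from so few counts goes with the shortness of Trf-209.

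Slc11a2 had 2 leading messages with different 3′ ends. Slc11a2-201, of 3025 bases and with no match to the pattern, held 45.6% and 44.6% of the gene's TPM. Slc11a2-205, of 4415 bases and with the 4-pair stem loop in its 3′ UTR, held 43.03% and 44.48%. Their shares differed by 2.57 percentage points in replicate 1 and 0.15 in replicate 2, a mean of 1.36 ± 1.71, within the spread between libraries. The 2 forms thus were not told apart in TPM. In expected counts, which are not divided by length, the longer Slc11a2-205 held more in both libraries. It had 1277 and 1185, beside 918 and 806 for Slc11a2-201.

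**Figure D3:**
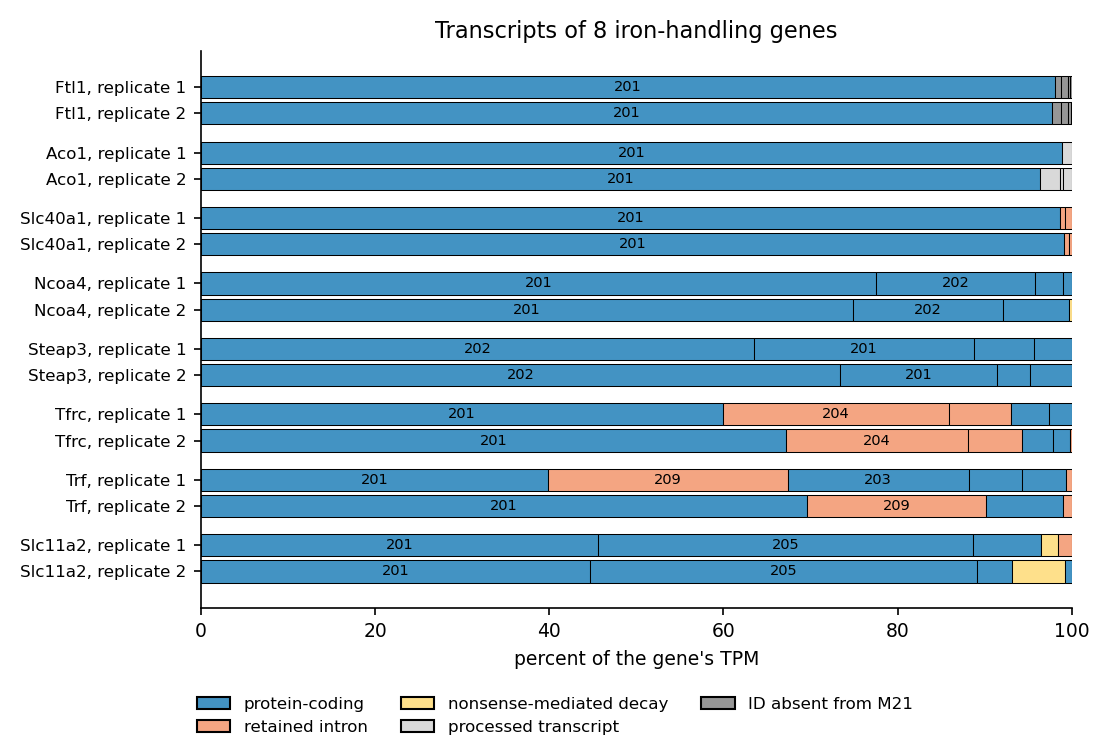
Percent of gene TPM in each transcript for the 8 genes with several transcripts, per library, coloured by annotated type, with the number of each transcript over 12% written in. Trf-201 changes from 39.9% to 69.6% between libraries, retained introns hold 33.1% and 27.2% of Tfrc, and Slc11a2-201 and Slc11a2-205 are nearly even.

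The 10 genes were also compared between the 2 pools. With expected counts scaled by TMM library sizes, 0 of the 10 differed by over 1.5-fold in either direction, against 2.93% of the 13842 genes that averaged at least 50 counts. At a share that low, 0 of 10 does not set these genes apart. No test was made, since each pool is a single library. The median log2 ratio of replicate 2 over replicate 1 was -0.02 for the 10 genes and 0.00 over all those genes, and the median size of the ratio, sign aside, was 0.04 and 0.08. These sizes were not matched for read count: even Steap3, the lowest of the 10, had 230 and 207 counts. The widest ratios belonged to Slc40a1 at -0.30 (95% exact binomial interval -0.49 to -0.11), Ncoa4 at -0.27 (-0.33 to -0.22) and Fth1 at -0.13 (-0.15 to -0.10). Among the 13842 genes the Slc40a1 and Ncoa4 ratios were larger in size than 88.0% and 86.5% of all. Tfrc stood at 0.05 (-0.00 to 0.10).

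Red cell RNA moved in the same direction between the pools. All 11 erythroid marker genes were lower in replicate 2, with a median log2 ratio of -0.42, and their summed level was 24833 TPM in replicate 1 and 18161 in replicate 2. They were led by the embryonic globin Hbb-y at 9046 and 6644 TPM and by Hba-a2, nearly identical to its neighbour Hba-a1, at 4812 and 3397. Of the 8 heme synthesis genes 7 were lower in replicate 2, with a median of -0.12. Over all genes that averaged at least 50 counts, 6831 of 13842 were lower in replicate 2. The part of red cell RNA in the lower Slc40a1, Ncoa4 and Fth1 of replicate 2 was not tested.

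**Figure D4:**
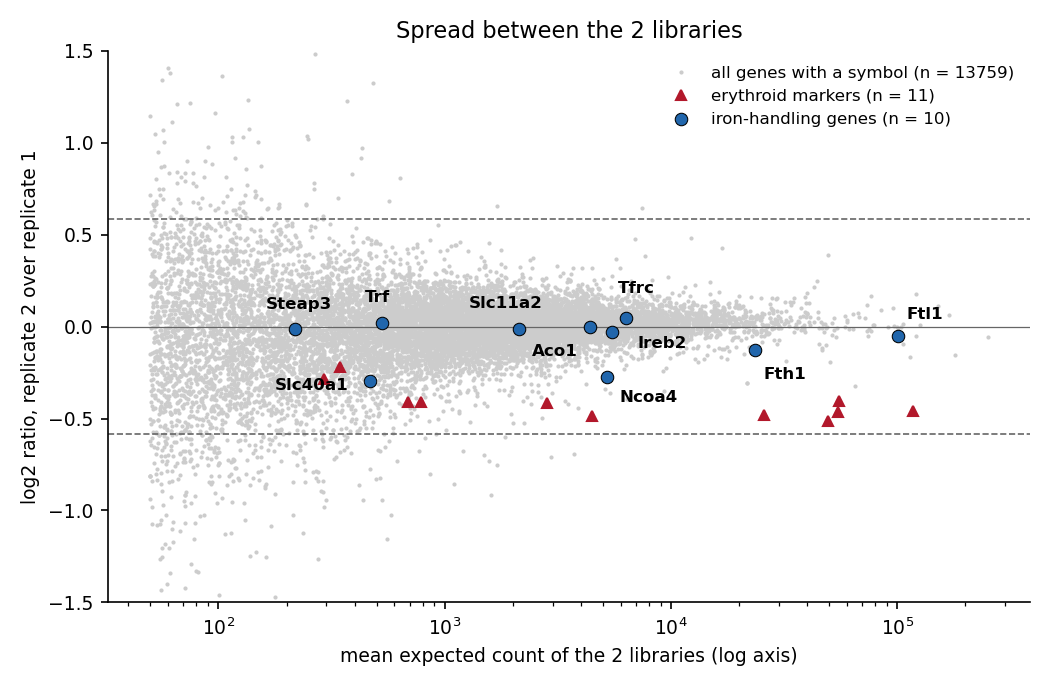
Log2 ratio of replicate 2 over replicate 1 against the mean expected count (log axis) for genes that average at least 50 counts; 18 genes lie beyond the axis limits of 1.5. Dashed lines mark 1.5-fold: the 10 iron-handling genes (circles) lie between -0.30 and 0.05, and the 11 erythroid markers (triangles) all lie below 0.

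Markers of other cells in the sample were read for their levels and for their ratios between the pools. All 8 neuroepithelial markers reached 1 TPM in both libraries, led by Vim at 765 ± 4.26 and Hes5 at 241 ± 12.3. Their median log2 ratio of replicate 2 over replicate 1 was -0.02, and 1 of them lay past 1.5-fold, Fabp7 at 194 and 120 TPM (-0.71). The medians for macrophages, endothelium and head mesenchyme were -0.02, 0.05 and -0.03, with no marker past 1.5-fold; Twist1 of the mesenchyme, at 0.41, and C1qc of the macrophages, at -0.46, lay nearest to it. Fabp7, Twist1 and C1qc were named after their values were seen. Macrophage markers, of cells that recycle iron, were detected in 10 of 10 with a summed 60.8 and 58.1 TPM, led by C1qb at 12.8 and 13.2 TPM and Fcer1g at 10.2 and 10.3. Endothelial markers were detected in 8 of 8 (summed 198 and 206 TPM, led by Egfl7 and Esam) and head mesenchyme markers in 7 of 7 (499 and 504 TPM, led by Col3a1 and Col1a2). Of 9 oligodendrocyte and choroid plexus markers, cell types that carry much transferrin in the adult brain, 3 were detected, led by Olig2 at 9.57 ± 0.552 and Olig1 at 7.15 ± 0.0778. The 6 others, Sox10, Aqp1, Ttr, Mag, Mog and Kl, stayed under 1 TPM in both libraries. The list as a whole thus does not show that these cell types were present. Of 8 yolk sac and liver markers 1 was detected, Rbp4 at 1.48 ± 0.544, and Apoa4, Serpina1a and Fgb had 0 counts.

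The wider iron pathway was read from 86 further genes in 8 lists. Of these, 73 (84.9%) reached 1 TPM in both libraries, their median was 19.0 TPM, and of the 77 that averaged at least 50 counts 3 lay past 1.5-fold between the pools. Those 3, named after their values were seen, were Tfr2 (log2 ratio -0.81), the heme-binding Hebp1 (-0.93) and erythroferrone (Erfe, 0.81), all with few counts: 122 and 63 for Tfr2, 141 and 67 for Hebp1, and 52 and 84 for Erfe. The background shares are the 57.3% and 2.93% given for all genes.

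Uptake and endosomal transport genes were spread widely: 10 of 15 were detected, with a median of 5.06 TPM. Snx3 at 226 ± 7.36 and Vps35 at 136 ± 0.00707 TPM, which return Tfrc from endosomes to the surface, led the list. They were followed by the lysosomal channel Mcoln1 at 49.1 ± 1.61 and the metal transporter Slc39a8 at 17.1 ± 0.573. The ferritin receptor Scara5, the ferric reductases Cybrd1 and Steap4, and the siderophore-binding Lcn2 were under 1 TPM in both libraries. Lcn2 had 0 counts, which allows up to 0.131 TPM in replicate 1 and 0.145 in replicate 2.

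Of 7 genes of export and ferroxidase activity 6 were detected. App, the amyloid precursor protein, led with 70.4 ± 2.83 TPM, ahead of the heme exporter Abcg2 at 39.4 ± 1.44, the ferroxidase hephaestin (Heph) at 10.9 ± 0.113 and Mon1a, linked to ferroportin traffic, at 10.5 ± 0.127. Hephl1 had 0 counts, with a limit of 0.0210 and 0.0233 TPM. Heph, which oxidises the iron that ferroportin exports, lay above Slc40a1 in both libraries, at 10.9 and 10.8 TPM.

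In the list of storage, iron chaperones and ferritin turnover 7 of 8 were detected, with a median of 82.9 TPM. Pcbp1 and Glrx3, which carry iron in the cytosol, had 282 ± 33.3 and 259 ± 0.728 TPM, their partner Bola2 183 ± 0.827 and Tax1bp1, a further receptor for ferritin turnover, 98.0 ± 5.40. Ftmt, mitochondrial ferritin, had 0 counts in both libraries, which allows up to 0.0802 and 0.0889 TPM.

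All 9 genes of IRP control and further messages with iron-responsive elements were detected. Skp1a and Cul1, parts of the ubiquitin ligase that targets IRP2, had 771 ± 3.67 and 181 ± 7.26 TPM, and its iron-sensing subunit Fbxl5 had 50.8 and 51.1 TPM. Hif1a, the hypoxia-inducible factor, had 71.2 ± 3.71 TPM. Alas2, at 66.9 and 51.4 TPM, is also in the erythroid list.

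Hepcidin and its control gave little signal: 4 of 9 genes were detected, led by the receptors and signal carriers Neo1 at 17.5 ± 0.283 and Smad4 at 15.4 ± 1.06, then Bmp6 at 2.53 ± 0.255 and hemojuvelin (Hfe2) at 1.48 ± 0.113. The hepcidin gene Hamp, which encodes the hormone that removes ferroportin from the surface, and the related Hamp2 had 0 counts in both libraries. Being short, they had limits of 0.370 and 0.410 TPM for Hamp and 0.321 and 0.356 for Hamp2. Tmprss6 had 0.25 and 0.17 TPM.

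Genes that use iron inside the cell were nearly all detected. All 21 genes of mitochondrial iron and iron-sulfur clusters were detected, with a median of 47.6 TPM, led by the chaperone Hspa9 at 255 ± 5.59, the glutaredoxin Glrx5 at 230 ± 0.764, Cisd1 at 117 ± 0.764 and Isca2 at 96.4 ± 0.346. All 8 heme synthesis genes were detected, among them Alad at 107 ± 1.68, Urod at 85.5 ± 8.12 and Ppox at 46.5 ± 3.51 TPM. Of 9 genes of heme breakdown and transport 8 were detected, led by Pgrmc1 at 305 ± 1.61, the heme oxygenase Hmox2 at 68.6 ± 0.134, the biliverdin reductase Blvrb at 33.0 ± 6.23 and the heme transporter Slc48a1 at 23.4 ± 2.14, and Flvcr2 stayed at 0.52 and 0.42 TPM.

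**Figure D5:**
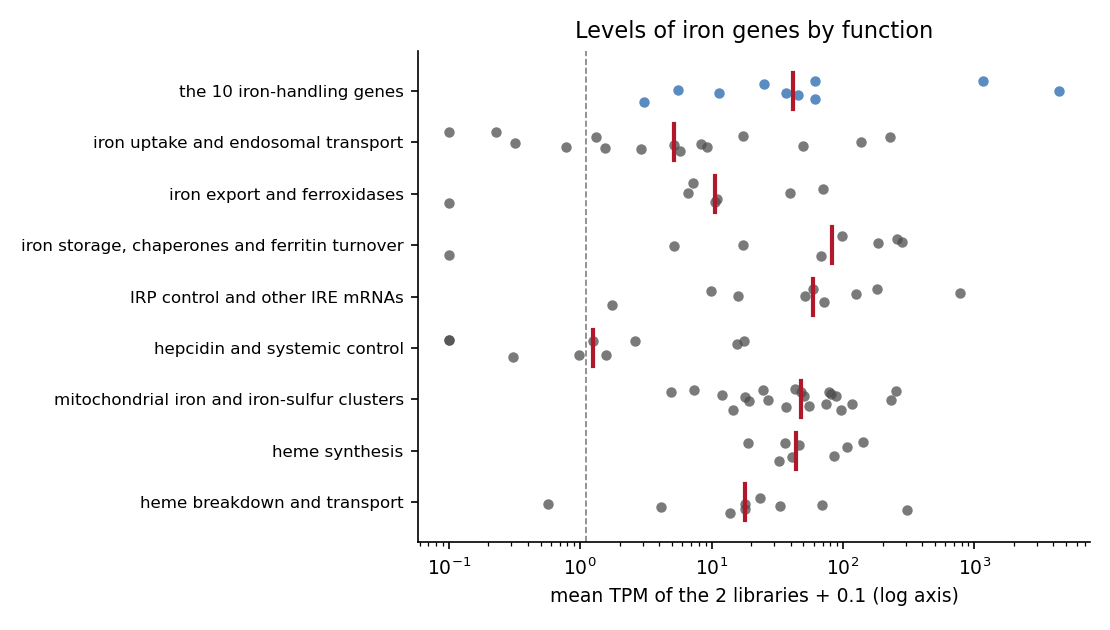
Mean TPM + 0.1 (log axis) of the 10 iron-handling genes and of 86 other iron genes by function; bars are list medians and the dashed line marks 1 TPM. Hepcidin and systemic control has the lowest median at 1.16 TPM and the list of storage and chaperones the highest at 82.9 TPM.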

How the data were processed

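Total RNA (mirVana, size above 200 per the labels' protocols, with a kit manual for very low input) from pooled mouse forebrain was sequenced as 2 libraries of 1 group. The authors deposited expected counts per gene and transcript, not normalized and not always whole, and TPM, FPKM and posterior mean TPM from them, per the file headers. The deposited transcript tables add each transcript's percent of its gene. The notes deposited with the samples give mm10 and annotation M4; the column names match RSEM output. For aligner, quantifier, priming and strand, no name is given in the sources used here. Deposited TPM shares run over all 69691 rows, including spike-ins at 7.83% and 7.01%.

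The 10 members and all gene lists were chosen with earlier results of these data known. Symbols matched 42462 of 43346 Ensembl rows; rows without one held 0.252% and 0.260% of counts. Coordinates and transcripts are from GENCODE M21 (GRCm38), whose models can differ from M4. Library ratios used expected counts plus 0.5 over TMM library sizes (edgeR 4.0.16 in R 4.3.3, rounded counts); DESeq2 1.42.0 size factors were an alternative. Like rows had at least 90% identity over 100 bases of the member transcript (BLAST 2.17.0) or a pseudogene name. The ratio step was tested on simulated data. Pairs were compared as differences of log2(TPM + 0.1) within a library. A count of 0 was set at 3 counts, and the binomial intervals (95%) and these limits cover counting error only. With 1 group of 2 libraries, labelled as separate biological replicates, no p-value was computed. Named genes are the members, the 4 highest and up to 4 undetected genes of each iron list, the 2 highest of each marker list, the leading pseudogene and overlapping rows, up to 3 transcripts a member and the nearest genes in level; others were named after their values were seen. A few genes under this rule are left out of the text. Python 3.11.15, pandas 2.3.3, scipy 1.17.1 and matplotlib 3.10.9 did the rest.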

Additional observations from a re-analysis of the deposited data

How the results depend on the processing

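Of 70 values recomputed under other settings for the comparisons, 18 moved further than the spread between libraries and 1 reversed. The other 51 moved less (counts by less than 1.5 times), but part of these were bound to stay. Within a library FPKM is TPM times a constant, so FPKM values could shift only through the pseudocount. With 0 of the 10 genes past 1.5-fold, 0 past 2-fold follows. Looser count filters leave those 10 ratios as they are. The tally of 51 is therefore no measure of stability. Without division by length, the neighbouring pairs told apart fell from 8 to 6, which was scored as less than 1.5 times. Of 38 such values for single members 26 moved further. Read counts scaled to library size, without division by length, gave log2 differences of 2.10 (against 1.93) for Ftl1 over Fth1, 4.29 (6.52) for both chains over Tfrc, 2.17 (4.25) for Fth1 over Ncoa4, 3.57 (2.44) for Tfrc over Trf, 6.11 (5.57) for Tfrc over Tfr2, 3.76 (3.47) for Tfrc over Slc40a1 and -3.26 (-3.03) for Steap3 over Slc11a2, and Aco1 over Ireb2 reversed from 0.32 to -0.32, since that scale leaves out transcript length. A pseudocount of 1 gave 4.82 for Tfrc over Tfr2 and -2.71 for Steap3 over Slc11a2, and 0.01 gave -3.07 for the latter. Posterior mean TPM gave 3.09 for Tfrc over Slc40a1 and 1.87 (2.18) for Slc11a2 over Slc40a1; protein-coding transcripts alone, added after seeing the data, gave 2.97 for Tfrc over Slc40a1. The median member level of 41.2 TPM became 44.5 without spike-ins, 46.5 without spike-ins, globins and mitochondrial genes, and 40.6 as posterior mean. The median leading transcript share of 72.3% became 67.9% in posterior mean estimates. Reads in light chain pseudogene rows rose from 1.35% of Ftl1 to 2.61% with every like row, also added later.

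Leaving out a library of 2 moves a mean by a fixed part of its SD and so says nothing of stability. No paired analysis was possible because there is 1 group. With 2 pools the SD rests on 2 values, and low members such as Steap3, at 207 to 230 counts, and Trf transcripts are limited by depth.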
